A study of Mus musculus with 2 samples.

Results

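The 9 genes described here, Hmgcs1, Mvk, Pmvk, Mvd, Idi1, Fdps, Fdft1, Sqle and Lss, encode enzymes that carry carbon from HMG-CoA synthesis to lanosterol, the first sterol. They were picked by symbol, in pathway order, and all 9 were found among the 24346 gene symbols of each table. The data are 2 RNA-seq libraries of CD4+ T cells, 1 a group, sorted from mouse spleen at day 14. The probucol library came from HFD-MI animals given probucol, a cholesterol-lowering antioxidant drug, and the untreated library from HFD-MI animals without it. Both groups thus share the HFD-MI state. HypoE, a term left unexplained by the labels, stands in both column headers; genotype, age and number of animals are not stated. Levels are in FPKM, that is, fragments scaled to transcript length and to the library's mapped fragments.

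Mevalonate is made from acetyl-CoA through HMG-CoA, is phosphorylated by successive kinases and is decarboxylated to isopentenyl diphosphate. That unit is isomerised and joined into farnesyl diphosphate, which feeds prenylation of proteins, ubiquinone and dolichol as well as squalene and the sterols. In most cells the genes of this route are switched on together by the transcription factor SREBP2 when sterols in the endoplasmic reticulum run low, and T cells use the route when they enlarge and divide.

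Across the route, 6 of the 9 genes were lower with probucol and 3 were higher; with both libraries rescaled to the same FPKM sum the split was 5 and 4, because Idi1 lay so near 0. The difference was uneven along the pathway. Mvk and Pmvk, the consecutive kinases of mevalonate, were lower by more than 2-fold. Mvd, the next enzyme, and Fdft1 and Sqle, the first enzymes committed to sterols, were higher by less than that. With 1 library a group there is no replicate check, and no p-value is given.

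Upstream sequence is shown for Mvk and Pmvk, which had the lowest ratios, and for Hmgcs1 and Mvd, the genes before and after them among the 9. The bases come from RefSeq on GRCm38.p6, the assembly of mm10, and are written 5′ to 3′ on the strand of the gene. Each stretch ends at a RefSeq transcript start and holds no annotated exon. For Hmgcs1 that start lies upstream of the annotated gene start used below, 119690379. Capitals mark CCAAT, the box bound by NF-Y, on either strand (ATTGG when reversed), and TCACNCCAC, letters of a sterol regulatory element.
Hmgcs1, chr13:119690101-119690350, plus strand: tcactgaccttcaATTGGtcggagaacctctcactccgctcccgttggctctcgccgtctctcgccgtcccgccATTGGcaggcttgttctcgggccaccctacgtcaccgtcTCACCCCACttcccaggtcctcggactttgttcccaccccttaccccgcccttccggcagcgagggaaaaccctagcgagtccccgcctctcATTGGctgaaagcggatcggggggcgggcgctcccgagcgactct
Mvk, chr5:114444061-114444268, plus strand: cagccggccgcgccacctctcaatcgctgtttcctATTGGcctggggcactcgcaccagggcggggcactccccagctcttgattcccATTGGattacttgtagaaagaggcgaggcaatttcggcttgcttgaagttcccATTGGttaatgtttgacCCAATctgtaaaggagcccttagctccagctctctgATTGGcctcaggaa
Pmvk, chr3:89454291-89454540, plus strand: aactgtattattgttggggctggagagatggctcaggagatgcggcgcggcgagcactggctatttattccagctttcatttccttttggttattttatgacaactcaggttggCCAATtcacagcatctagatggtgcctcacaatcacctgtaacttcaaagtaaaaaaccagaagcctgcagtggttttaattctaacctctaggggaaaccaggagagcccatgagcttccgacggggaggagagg
Mvd, chr8:122443423-122443672, minus strand: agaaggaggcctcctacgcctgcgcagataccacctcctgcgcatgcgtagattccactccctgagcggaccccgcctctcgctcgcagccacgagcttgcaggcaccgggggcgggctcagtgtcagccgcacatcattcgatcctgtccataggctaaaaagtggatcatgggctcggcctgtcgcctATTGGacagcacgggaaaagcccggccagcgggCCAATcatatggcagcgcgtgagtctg

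The motif search used the 250 bases before each RefSeq start, on both strands. Of the 9 genes, 6 had such a window (Hmgcs1, Mvk, Pmvk, Mvd, Idi1 and Lss), and Pmvk had 2, the downstream one inside the gene. The Idi1 window runs past the annotated gene start at 8885501. Annotated exons of Idi1 and of an overlapping gene, Gm48574, cover all of it, and its boxes lie inside the gene. A CCAAT box was found before a RefSeq start of all 6 genes, in 6 of their 7 windows, and in 33.8% of the 32851 windows in the table. Mvk held 5 copies, Hmgcs1 3, Mvd and Idi1 2 each, Lss 1 and Pmvk 1, the last before its upstream start only. The letters TCACNCCAC occurred once among these genes, upstream of Hmgcs1, beginning 137 bases before the start, and in 1.05% of all windows. The E-box CACGTG, present in 6.02% of windows, was found in none of the 7. These matches describe the letters in the window and do not show binding. Mvk, with 5 boxes, and Pmvk, with 1, had the lowest ratios of expression.

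**Figure D1:**
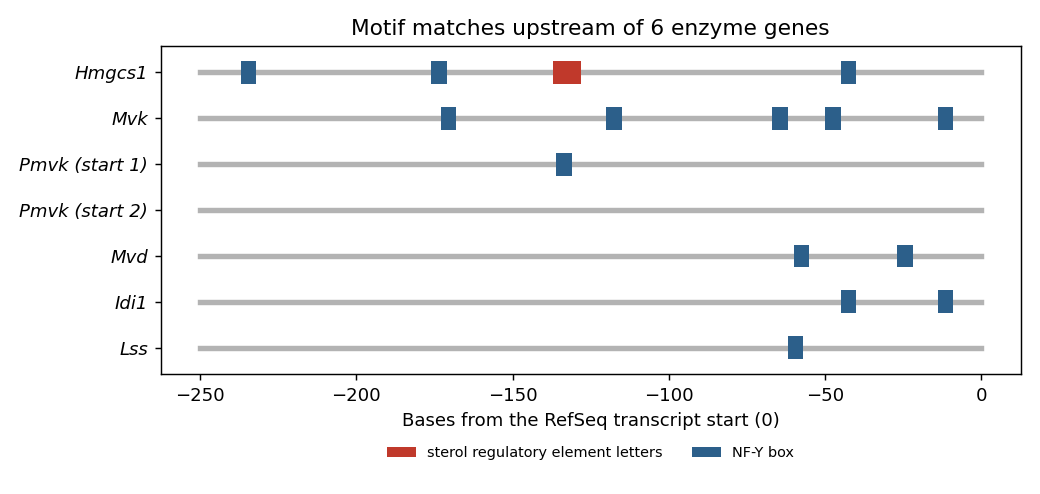
Motif matches in the 250 bases upstream of the RefSeq starts of 6 enzyme genes. The x axis gives bases from that start, which for Idi1 lies inside the annotated gene. Blue blocks are CCAAT boxes and the red block the sterol regulatory element letters, on either strand. Mvk carries 5 boxes, and the red block stands upstream of Hmgcs1 alone among these genes.

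The Mvk stretch is the whole space between divergent genes. Mvk and Mmab, which encodes the adenosyltransferase of vitamin B12, start back to back with 208 bases between them. Mmab stood at 3.82 FPKM with probucol against 5.46 FPKM untreated. It was thus lower with probucol as Mvk was, by 1.43-fold. Its interval spans 1 at the median transcript length (0.927 to 2.15) and not with curated RefSeq lengths (1.10 to 1.83).

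Intervals here and below are 95% counting intervals. Fragments per gene were estimated from the worth of 1 fragment, read from steps in the low FPKM values, and from annotated transcript length. The fold interval is exact (Clopper-Pearson) and the interval of a level exact Poisson. They hold counting error alone; spread between animals, between sorts or from library making is not in them, and PCR copies could not be removed. Folds are ratios of FPKM. Log2 ratios are of probucol over untreated on FPKM + 1, which understates the change of low genes.

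The libraries were alike in depth. Estimated fragments in genes numbered 5.53e+06 with probucol and 5.63e+06 untreated, and 1 FPKM on a transcript of 1 kb equals about 7.84 and 7.88 fragments. These totals, from the median annotated transcript, lie below the 1.01e+07 mapped fragments that the steps imply for each library. With the lengths of curated RefSeq transcripts both came to 1.04e+07, so fragment numbers printed here are low for some genes and their intervals wide. CD4 T cell genes were abundant and close: Cd3g was at 1256 and 1419 FPKM and Lck at 1092 and 974 FPKM, while Cd8a was at 0.139 and 0.276 FPKM and Cd8b1, which encodes the other CD8 chain, at 15.9 and 19.6 FPKM. Symbols above 0 numbered 14289 with probucol and 16876 untreated.

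Markers of other cells moved between the libraries. Past 2-fold here means a log2 ratio of 1 or -1 on FPKM + 1. Some genes of low level that differ more than 2-fold in FPKM are thus not counted. Over all genes with a mean FPKM of 1 or more, 1.62% were higher and 1.98% lower by that much. Of the 14 B cell genes, 9 passed a mean FPKM of 1 and 8 of these were higher with probucol, 7 of them past 2-fold. The list summed to 85.1 FPKM against 34.7 FPKM, with Pax5 at 0 in both libraries and Blnk at 0 untreated. Erythroid genes summed to 375 FPKM with probucol against 1212 FPKM untreated, with 10 of 11 lower and 5 of them past 2-fold. Neutrophil genes, 9 of 11 higher and 2 of them past 2-fold (Elane and Mpo), summed to 1088 and 967 FPKM. Macrophage genes, 7 of 11 higher and 0 past 2-fold, summed to 211 FPKM in both, most of it Lyz2 (125 and 132 FPKM), with Marco at 0 with probucol. Of the natural killer genes 4 of 6 were lower, with a median log2 ratio of -0.73 and Gzma (0.150 and 3.28 FPKM) and Klrd1 (1.22 and 6.22 FPKM) past 2-fold. Their sum, 58.2 and 54.3 FPKM, was mostly Prf1 at 49.9 and 36.3 FPKM, with Klra8 at 0 in both and Klra4 at 0 untreated. Ncr1, too low to pass the filter, was higher with probucol, at 1.04 FPKM against 0.0795 FPKM (fold interval 1.96 to 555). The natural killer median was 0 when low genes were kept. Under the stricter filter of 5 FPKM only Prf1 was left, with a log2 ratio of 0.45. The direction of this list thus depended on the filter. Of the dendritic cell genes 2 of 3 measured were lower, 0 of them past 2-fold, and the list summed to 8.39 and 8.98 FPKM. Clec9a, Itgax and Batf3 were at 0 untreated and at 0.147, 0.263 and 0.199 FPKM with probucol. Xcr1 (0.992 and 1.86 FPKM) and Zbtb46 (0.422 and 1.37 FPKM) were lower with probucol. Of the 16 cell cycle genes, 12 were lower with probucol, 1 of them past 2-fold, and 4 higher, with a median log2 ratio of -0.39. Their sum was 279.7 FPKM against 317 FPKM. Its largest part was Pcna, at 129 and 113 FPKM, which was higher with probucol. The part of these cells, or of cycling, in the differences below was not tested. In a bulk sort, fewer cells that express a gene and less RNA per cell cannot be told apart.

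Hmgcs1 (chromosome 13, 119690379 to 119708260, mm10) encodes cytosolic HMG-CoA synthase, which joins acetyl-CoA to acetoacetyl-CoA. It was at 7.93 FPKM with probucol against 9.09 FPKM untreated, 1.15-fold lower with an interval (0.937 to 1.41) that spans 1. Part of its exons, 557 of 4594 bases, is shared with an antisense transcript, Gm48342, and no stranded counting is stated.

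Mvk (chromosome 5, 114444269 to 114460591) encodes mevalonate kinase, the enzyme lost in mevalonate kinase deficiency, an inherited fever syndrome. It was at 2.56 FPKM with probucol, on about 21 fragments, and at 7.58 FPKM untreated, on about 64. That is 2.96-fold lower (1.83 to 5.23), a log2 ratio of -1.27, which ranked 119 from the lowest of 10663 genes with a mean FPKM of 1 or more. Mvk was the lowest of the 9 genes with probucol and above Idi1, Lss and Sqle untreated. The level intervals, 1.56 to 3.84 FPKM and 5.87 to 9.74 FPKM, did not overlap.

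Pmvk (chromosome 3, 89454541 to 89469013) encodes phosphomevalonate kinase, which adds the following phosphate. It was at 9.47 FPKM with probucol against 21.4 FPKM untreated, on about 81 and 183 fragments, 2.26-fold lower (1.72 to 2.96). Its log2 ratio of -1.10 ranked 172 from the lowest. Untreated, Pmvk was second in level to Fdps alone among the 9, and with probucol Mvd and Fdft1 also stood above it.

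Mvd (chromosome 8, 122433601 to 122443422) encodes the decarboxylase that turns mevalonate diphosphate into isopentenyl diphosphate. Unlike the kinases before it, it was higher with probucol, at 12.7 FPKM against 9.34 FPKM, a fold of 1.35 (1.09 to 1.68) on about 200 and 149 fragments. The order of these neighbours thus differed between the libraries. The Mvd to Pmvk ratio of FPKM was 1.34 with probucol and 0.437 untreated, and the Mvd to Mvk ratio was 4.94 and 1.23. In a split made after the values were seen, the 2 kinases summed to 12.03 FPKM with probucol against 29.0 FPKM untreated, a ratio of 0.415, whereas the other 7 genes summed to 78.6 and 85.1 FPKM, a ratio of 0.924.

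Idi1 (chromosome 13, 8885501 to 8892451) encodes the isomerase that makes dimethylallyl diphosphate. Its level was 4.98 FPKM with probucol against 4.99 FPKM untreated, the closest pair of the 9, with a fold of 0.997 (0.561 to 1.80). That interval rests on about 26 fragments in each library at the median transcript length. With the longest annotated transcript or curated RefSeq lengths it was 0.779 to 1.26, on about 140 and 142 fragments. Its transcript matches 3 processed pseudogenes at 90.6% to 100% identity, so fragments could have been split. Its paralog Idi2 was listed at 0 with probucol and 0.147 FPKM untreated.

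Fdps (chromosome 3, 89093588 to 89101959) encodes farnesyl diphosphate synthase, the branch point enzyme and the target of nitrogen-containing bisphosphonates. It was the most abundant of the 9 in both libraries, at 34.4 FPKM with probucol against 46.3 FPKM untreated, and made up 38.0% and 40.6% of the summed FPKM. It was 1.35-fold lower (1.13 to 1.60), on about 233 and 315 fragments. It resembles 6 processed pseudogenes at 91.1% to 98.9% identity and shares 1124 of 4208 exonic bases with the predicted gene Gm43738, so its value is uncertain.

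Fdft1 (chromosome 14, 63145150 to 63179578) encodes squalene synthase, which commits farnesyl diphosphate to sterols. It was at 11.03 FPKM with probucol against 9.27 FPKM untreated, a fold of 1.19 (0.954 to 1.49). With the longest annotated transcript or curated RefSeq lengths the interval was 1.02 to 1.38. The Fdft1 transcript matches 1 processed pseudogene at 97.4% identity, so fragments could have been split. Its annotated exons overlap those of Ctsb, the gene of the lysosomal protease cathepsin B on the other strand, over 774 bases. Ctsb stood at 152 and 174 FPKM, far above Fdft1, and it was lower with probucol while Fdft1 was higher.

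Sqle (chromosome 15, 59315077 to 59331192) encodes squalene epoxidase, a rate-limiting enzyme of the sterol branch and the target of terbinafine in fungi. It had the highest ratio of the 9, at 4.58 FPKM with probucol against 2.59 FPKM untreated, a fold of 1.77 (1.29 to 2.43) on about 114 and 65 fragments. Its log2 ratio was 0.63, short of 1. Lss (chromosome 10, 76531588 to 76557138) encodes lanosterol synthase, which closes the rings. It was at 3.03 and 3.49 FPKM, 1.15-fold lower (0.824 to 1.66). Untreated, Lss stood above Sqle by a ratio of 1.35, and with probucol below it, at 0.662. The 3 genes from Fdft1 to Lss summed to 18.6 FPKM with probucol against 15.4 FPKM untreated.

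**Figure D2:**
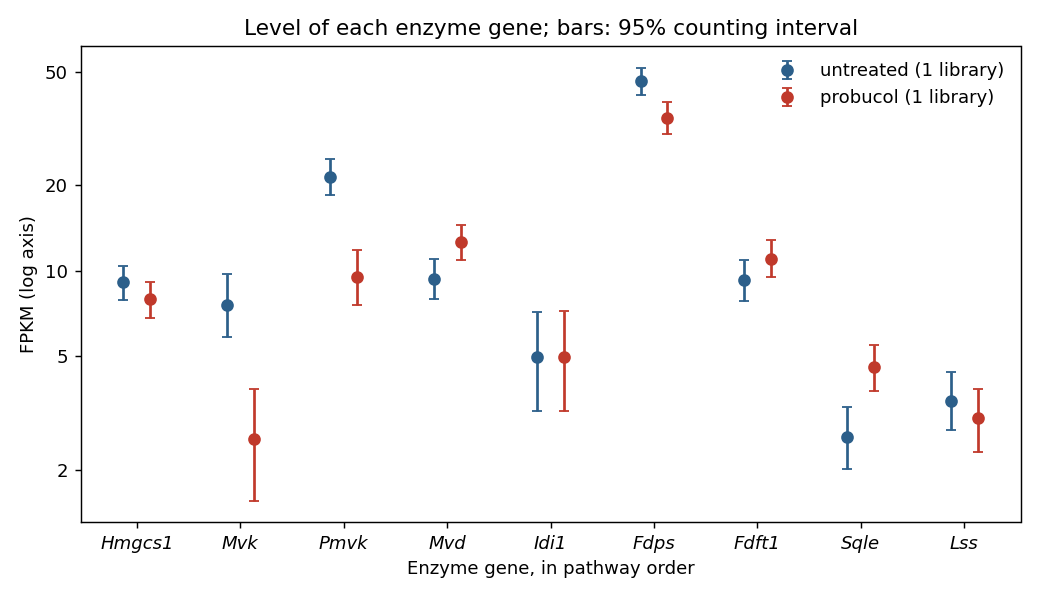
FPKM of the 9 enzyme genes in pathway order on a log axis, 1 library a group, with 95% exact Poisson counting intervals as bars. Mvk, Pmvk and Fdps are lower with probucol and Sqle higher, with bars that do not overlap, while Idi1 is at the same level in both.

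FPKM is per length, so levels can be set side by side between genes, as far as transcript models hold. The highest level exceeded the lowest 13.4-fold with probucol and 17.9-fold untreated. With probucol the order was Fdps, Mvd, Fdft1, Pmvk, Hmgcs1, Idi1, Sqle, Lss and Mvk. Untreated it was Fdps, Pmvk, Mvd, Fdft1, Hmgcs1, Mvk, Idi1, Lss and Sqle. Of the 8 pairs of neighbours in the order, the counting intervals overlapped for 7 with probucol and 6 untreated. Fdps stood apart in both libraries and Pmvk in the untreated one.

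The members' differences were read against those of all genes between the same libraries. Among 10663 genes with a mean FPKM of 1 or more, which all 9 members passed, 1.98% had a log2 ratio of -1 or less and 1.62% of 1 or more. Of the 9 members 2 were lower by that much and 0 higher. Their median log2 ratio was -0.16, beside 0.02 over all genes, of which 47.3% were lower. Fold intervals lay below 1 for 17.9% of 10246 genes and above 1 for 19.4%, so such intervals are common in this pair of libraries. Among the members 3 lay below 1 (Mvk, Pmvk and Fdps) and 2 above (Mvd and Sqle). These counts were not tested against the background.

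Genes of like level give a closer comparison. Among 3494 genes with a mean FPKM from 5 to 20, the central 90% of log2 ratios ran from -0.59 to 0.61, and 1.55% were at -1 or less. Mvk and Pmvk lay below that range, with 26 and 46 genes of the band lower still. Mvd (0.40), Fdft1 (0.23) and Hmgcs1 (-0.18) lay inside it. Mvk, at a mean of 5.07 FPKM, sat at the lower edge of this band. In the band below, from 1 to 5 FPKM, the spread was wider. There the central range began at -0.95, and 4.39% of genes were at -1 or less. The Mvk ratio of -1.27 lay below that range too. Fdps, at -0.42, sat at the edge of its band from 20 to 100 FPKM, whose central range began at -0.41. Sqle (0.63), Lss (-0.16) and Idi1 (-0.00400) lay inside the range from -0.95 to 0.85 of the 2621 genes between 1 and 5 FPKM. Thus 3 of the 9 members fell below the central range of their band, 0 above it and 6 within. By construction 5% of the genes of a band lie below its range.

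**Figure D3:**
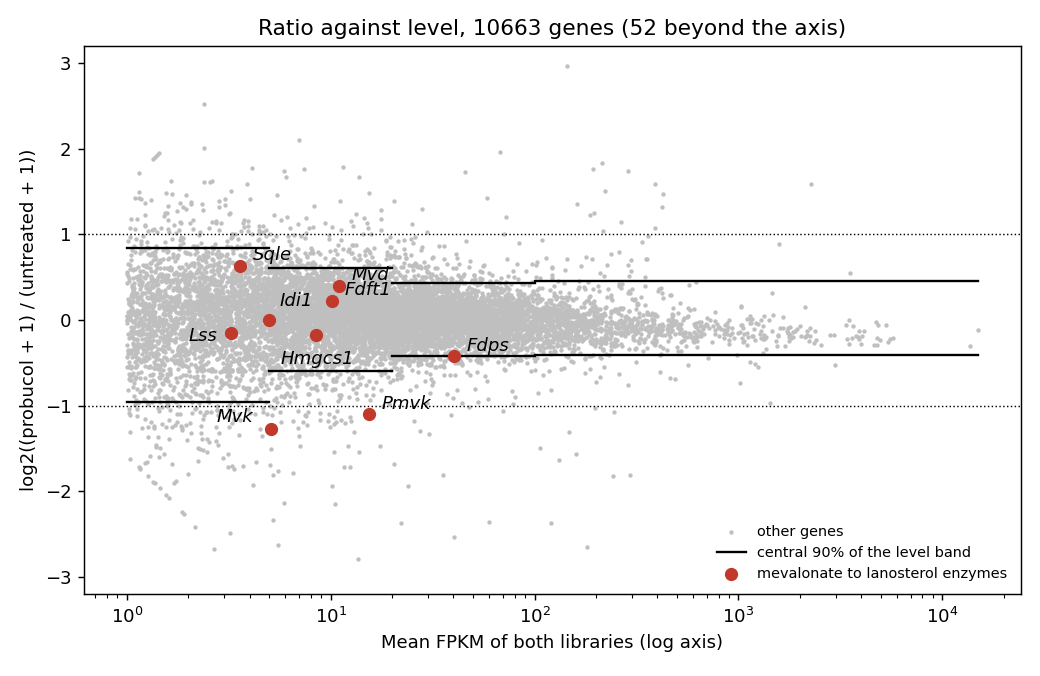
Log2 ratio of probucol over untreated (FPKM + 1) against mean FPKM on a log axis for 10663 genes, with the 9 enzymes in red, the central 90% of each level band as black lines and log2 ratios of 1 and -1 dotted; 52 genes lie beyond the axis. Mvk and Pmvk lie below -1 and outside the lines, and Sqle and Mvd above 0 and inside them.

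The rest of sterol metabolism was set beside the 9 genes from lists of the connected pathways. None of the genes in the 4 lists below, at a mean FPKM of 1 or more, reached a log2 ratio of 1 or -1 on FPKM + 1. Of the genes of the steps before mevalonate, Hmgcs1 aside, 1 of 4 measured was higher and 3 lower, with a median of -0.10. Acss2, which makes acetyl-CoA from acetate, was the lowest of them at 18.7 and 25.9 FPKM, a fold of 0.722 (0.622 to 0.835). Acat2, the cytosolic thiolase, was at 16.4 and 18.2 FPKM (fold 0.901, 0.763 to 1.07).

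After lanosterol, 4 of 8 measured enzymes were higher and 4 lower, with a median of -0.02; centred on the median gene the split was 3 and 5. Cyp51, the lanosterol demethylase that takes over from Lss, was at 6.97 FPKM with probucol against 5.30 FPKM untreated (fold 1.31, 0.767 to 2.198). Tm7sf2, a sterol reductase, was at 4.42 and 3.69 FPKM (fold 1.20, 0.643 to 2.25). Nsdhl, which removes the methyl groups with its partners, was at 8.63 and 10.5 FPKM (fold 0.823, 0.640 to 1.06), and Hsd17b7 at 1.15 and 1.44 FPKM (fold 0.797, 0.303 to 1.91). At the median transcript length the intervals of all 8 span 1. With curated RefSeq lengths those of Cyp51 (1.09 to 1.59) and of Sc5d, the lathosterol oxidase gene (1.03 to 1.20), lay above 1.

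Of the genes that control the route or sterol uptake, 3 of 11 measured were higher and 8 lower, with a median of -0.16; centred on the median gene the split was 2 and 9. Srebf2, which encodes SREBP2, was at 36.7 FPKM with probucol against 42.5 FPKM untreated (fold 0.862, 0.776 to 0.959). Its escort Scap was at 21.2 and 22.4 FPKM (fold 0.946, 0.624 to 1.43). The SREBP2 target Insig1, which retains the complex in the endoplasmic reticulum, had a fold of 1.01 (0.793 to 1.29). Mylip, a ubiquitin ligase induced by sterols, was at 18.8 and 23.9 FPKM (fold 0.788, 0.692 to 0.894). The highest ratios of the list belonged to the sterol carrier Stard4 (fold 1.14, 0.780 to 1.62) and the protease gene Mbtps1 (fold 1.06, 0.877 to 1.28).

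Genes of isoprenoid use were split, with 11 of 18 measured higher and 7 lower and a median of 0.02. Centred on the median gene the split was 9 and 9. Besides enzymes that use farnesyl or geranylgeranyl diphosphate, the list takes in others, such as those that act on prenylated proteins. Fntb, the beta subunit of protein farnesyltransferase, was at 4.13 FPKM with probucol against 8.49 FPKM untreated, a fold of 0.487 (0.256 to 0.895) on about 17 and 35 fragments and a log2 ratio of -0.89, which passed -1 with pseudocount 0.1. Its partner subunit Fnta was at 62.0 FPKM in both, as printed. Rabggtb, a subunit of the transferase for Rab proteins, was at 17.8 and 24.0 FPKM (fold 0.739, 0.607 to 0.902). Dhdds, which builds dolichol chains, was at 13.3 and 8.43 FPKM (fold 1.58, 1.28 to 1.94), and Zmpste24, a protease that trims prenylated proteins, at 23.2 and 19.3 FPKM (fold 1.20, 1.08 to 1.34).

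**Figure D4:**
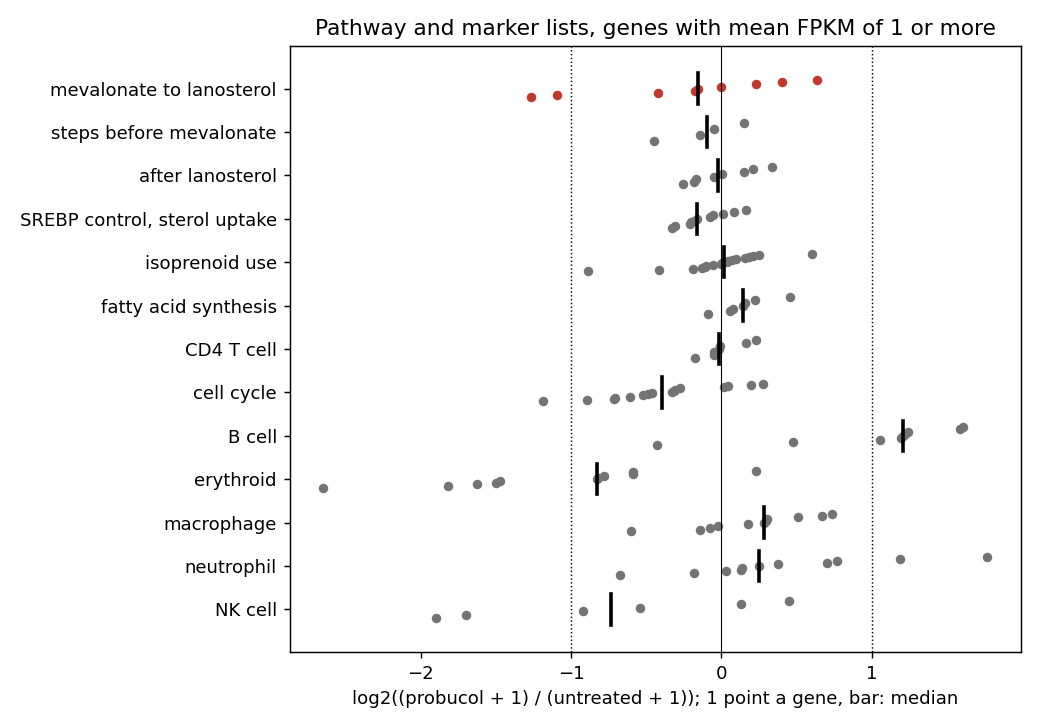
Log2 ratios (FPKM + 1) of the 9 enzymes in red and of measured genes of connected pathways and marker lists in grey, 1 point a gene, with the median as a bar and 1 and -1 dotted; the short CD8 and dendritic cell lists are not drawn. Medians of the 9 enzymes (-0.16) and of the connected sterol lists lie near 0, those of the B cell (1.21) and erythroid (-0.82) lists far from it.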

How the data were processed

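RNA of CD4+ T cells from spleen was sequenced in 2 libraries, 1 a group, at day 14. Per the labels' protocols, cDNA came from a SMART-Seq HT kit and libraries from a Nextera kit; unique molecular identifiers and stranded counting are not named. The authors deposited FPKM values, 1 per symbol, per the file headers. The submitters' processing notes list mm10, Cuffdiff 2.2.1, Bowtie2 and TopHat2 2.1.1; annotation and scaling: not given in the sources used here. No count model was used, as FPKM hold no counts.

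Fragments were estimated with steps fitted to genes of 1 transcript (800 to 10000 bp) in GENCODE M21 (GRCm38), with 220 bp subtracted; 76.6% and 75.1% of low values lay within 0.1 of a whole number, where 20% would by chance. The median transcript length was used, with the longest, and, chosen after seeing the data, that of transcripts linked to curated RefSeq entries, as alternatives. Of the symbols, 23268 had a length. Log2 ratios used a pseudocount of 1 and a mean FPKM of 1 or more; a log2 ratio of 1 or -1 counted as 2-fold. Named were all members, Insig1, Srebf2, Scap and Mmab, up to 2 genes at either end of each pathway list, and leading markers. Other genes were named after their values were seen (Fnta, Sc5d, Lyz2, Elane, Mpo, Gzma, Klrd1, Prf1, Ncr1, Xcr1, Zbtb46, Ctsb, Idi2, markers at 0). Some genes under this rule are not reported here. Near-identical transcripts were sought with blastn 2.17.0 (90% identity, 100 bp). Members and lists were chosen with earlier results of these data known. Interval and step code was tested on simulated data.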

Additional observations from a re-analysis of the deposited data

How the results depend on the processing

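Mvk and Pmvk kept log2 ratios of -1 or less, 2 of 9 members, with pseudocount 0.1, rescaling to equal sums, centring on the median gene and no filter on low values. With a higher filter (mean FPKM of 5), which Idi1, Sqle and Lss did not pass, they were 2 of 6. Mvk passed that filter narrowly, at a mean of 5.07 FPKM, and only through its untreated level (7.58 FPKM, against 2.56 FPKM with probucol). Its place under that setting is therefore no separate check. With pseudocount 5 the log2 ratios of Mvk and Pmvk were -0.73 and -0.87, and 0 members reached 1 or -1. Over all genes 0.516% were then higher and 0.6% lower by that much, 55 and 64 genes against 173 and 211. These counts were 313 and 357 with pseudocount 0.1, and 83 and 96 above a mean FPKM of 5. The count of members 2-fold higher was 0 in these settings too. Among the marker lists, the count of B cell genes 2-fold higher fell from 7 to 0 with pseudocount 5. That of erythroid genes 2-fold lower stayed at 5 there and rose to 8 with pseudocount 0.1. The median of the 9 genes ran from -0.20 (pseudocount 0.1) to -0.08 (pseudocount 5), and their mean was -0.21; the 6 genes left by the higher filter had a median of -0.30. With the longest transcript or curated RefSeq lengths, estimated fragments with probucol summed to 1.35e+07 or 1.04e+07; Fdft1 joined Mvd and Sqle above 1, Mvk, Pmvk and Fdps stayed below it, and over all genes 31.0% and 29.1% lay above 1 and 26.0% and 24.2% below. No paired analysis was possible because each group has 1 library, and none could be left out. At the median transcript length depth limits Mvk and Idi1 most, which rest on about 21 and 26 fragments with probucol. With curated RefSeq lengths they rest on about 36 and 140, so Idi1 is then limited less.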

Other observations

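Of the fatty acid synthesis genes, which SREBP1 governs, 6 of 7 measured were higher with probucol and 1 lower, with a median log2 ratio of 0.14 and 0 past 2-fold. Over all genes 5617 of 10663 were higher, with a median of 0.02. The fold interval lay above 1 for 1 of the 7 at the median transcript length, beside 19.4% over all genes. These counts were not tested against the background. Elovl5, an elongase of polyunsaturated fatty acids, was at 191 and 139 FPKM (fold 1.38, 1.24 to 1.53). Acaca, which makes malonyl-CoA, was at 1.75 and 1.36 FPKM (fold 1.29, 0.588 to 3.30, or 1.01 to 1.65 with curated RefSeq lengths). The other 5 intervals span 1 at the median transcript length. Scd2, a desaturase, was the lowest at 28.1 and 30.0 FPKM (fold 0.937, 0.860 to 1.02), and Acsl3, which activates fatty acids, was at 4.76 and 4.53 FPKM (fold 1.05, 0.574 to 1.91).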
